A study of Homo sapiens with 6 samples.

Results

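The aryl hydrocarbon receptor (AHR) pathway was followed in A549 cells, an established line from a human lung adenocarcinoma, upon knock-down of KMT9α, the catalytic subunit of the histone methyltransferase KMT9. The 7 genes were taken by symbol from the deposited count table of 23180 gene symbols: the receptor AHR, its partners ARNT and ARNT2, its repressor AHRR, and the target genes TIPARP, CYP1A1 and CYP1B1. All 7 were listed and all 7 passed the filter on low counts. RNA-Seq had been performed on 3 samples transfected with a control siRNA (siControl) and 3 samples transfected with an siRNA against KMT9α (siKMT9α#1), labelled as biological replicates, all of wild-type genotype and at passage 11. According to the methods of the study, the siRNA was used at 65 nM and RNA was isolated 3 days after transfection, so that the control cells were transfected as well. A single siRNA and a single cell line stand behind every value below. Nothing in the labels says whether the replicates were separate transfections, so that the p-values measure only the spread between these samples.

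AHR is a transcription factor of the basic helix-loop-helix PAS family. It waits in the cytosol with HSP90 chaperones, binds planar aromatic ligands such as dioxins, combustion products and tryptophan metabolites, moves to the nucleus and there pairs with ARNT or ARNT2. The pair binds the xenobiotic response element and induces CYP1A1 and CYP1B1, which oxidise such ligands, and also AHRR and TIPARP, both of which restrain the receptor. In the airway the pathway is known for the induction of CYP1A1 and CYP1B1 by tobacco smoke.

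Of the DNA behind these genes, the region upstream of CYP1A1 is shown first because it holds the most response element letters of the pathway genes examined. The regions upstream of CYP1B1 and ARNT2 were not searched, so CYP1A1 is not compared with them. The motif searched was TNGCGTG on both strands, the core GCGTG with its flank, of which the core overlaps sites that hypoxia factors can also use. In the 1500 bases before the deposited transcript start, CYP1A1 holds 5 matches, whose first bases lie 1377, 1053, 978, 890 and 495 bases before the start. Of 12904 tested genes with such a window, 28.0% hold at least 1 match, and 3 genes, or 0.023%, hold 5 or more. ARNT holds 2 matches, a number reached by 4.95% of the genes, TIPARP holds 1 and AHR holds 0 in this window. For AHRR the deposited start at 304291 lies upstream of the gene start at 321829 in the GRCh37 annotation, so its window was not used. The deposited starts of AHR (17338276) and TIPARP (156392205) lie downstream of the annotated gene starts, 16955983 and 156391024. That of ARNT (150849244) lies upstream of 150849184. These windows were kept, and the windows of the other tested genes were not screened for such differences. The stretch with 3 of the CYP1A1 matches, in capitals, lies at chr15:75018741-75018950 on the minus strand of GRCh37 and reads 5′ to 3′ as follows.
CYP1A1 upstream: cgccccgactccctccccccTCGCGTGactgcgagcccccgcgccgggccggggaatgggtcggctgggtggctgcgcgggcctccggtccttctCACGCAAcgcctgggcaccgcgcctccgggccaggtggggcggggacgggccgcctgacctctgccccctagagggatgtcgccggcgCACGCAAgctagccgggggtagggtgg

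Promoter sequences from RefSeq (GRCh38.p14), 250 bases before and 50 bases after an annotated start, were matched for 5 of the 7 genes, and those of ARNT2 and CYP1B1 were not used here. The sequences are given for CYP1A1 and TIPARP, targets that moved in opposite directions, with the core GCGTG of either strand in capitals. The CYP1A1 promoter (chr15:74725479-74725778, minus strand) holds 1 core match, 57 bases before the start. The most upstream TIPARP promoter (chr3:156674340-156674639, plus strand) holds 2, at 208 and 142 bases before the start. Neither holds the longer TNGCGTG. Of 35116 promoters in RefSeq, 36.5% hold the core, 12.7% hold it at least 2 times and 5.51% hold TNGCGTG. The first of the AHRR promoters holds TNGCGTG 32 bases before its start. AHR holds 1 core match, 37 bases after its start, and ARNT holds 0. These letters are a description and do not show a bound site.
CYP1A1 promoter: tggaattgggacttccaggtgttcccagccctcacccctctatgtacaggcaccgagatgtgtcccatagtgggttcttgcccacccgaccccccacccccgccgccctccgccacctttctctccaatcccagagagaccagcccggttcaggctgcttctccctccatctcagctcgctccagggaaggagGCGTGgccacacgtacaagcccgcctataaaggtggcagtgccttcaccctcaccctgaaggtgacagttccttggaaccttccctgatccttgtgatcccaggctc
TIPARP promoter: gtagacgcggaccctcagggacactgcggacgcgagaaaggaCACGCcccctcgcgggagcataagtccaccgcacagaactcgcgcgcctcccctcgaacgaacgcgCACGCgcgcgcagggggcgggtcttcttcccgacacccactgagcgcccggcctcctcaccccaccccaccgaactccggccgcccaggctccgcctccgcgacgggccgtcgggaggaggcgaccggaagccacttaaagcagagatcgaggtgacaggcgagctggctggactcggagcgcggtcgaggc

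Where a symbol has several transcripts, the one used was chosen by its count summed over the 6 samples, the largest being taken, a measure that does not depend on the contrast between the groups. For ARNT this was NM_001668 with 3348 counts, next to 3347.5 for NM_178427. For AHRR it was NM_001242412 with 1426.5 counts, next to 1404 for NM_020731, and for TIPARP it was NM_015508 with 21919 counts, next to 21493 for NM_001184718. The listed transcripts of a gene share nearly all of their reads, and in a fit of every transcript their log2 fold changes lay between -0.48 and -0.47 for ARNT, between 0.32 and 0.33 for AHRR and at 1.54 for each of the 3 TIPARP transcripts. AHR, ARNT2, CYP1A1 and CYP1B1 have a single listed transcript. Totals over the transcripts used were 13740098 to 19832394.5 counts per sample. N6AMT1, the gene of KMT9α, was at 10.2, 10.9 and 11.4 counts per 1000000 (CPM) in the control samples, and the knock-down samples had 2.87, 3.22 and 3.35 CPM. The epithelial keratins KRT8 and KRT18 were abundant in every sample. SFTPA1, SFTPB and SFTPC, which mark alveolar type II cells, had at most 1 count. NKX2-1 of the same cells had 2 to 10 counts, though ABCA3, also of these cells, had 655 to 1379 counts. Of 5 markers of other cells, PECAM1 of endothelium had at most 1 count, PTPRC of leukocytes at most 2 and COL1A2 of fibroblasts 0. COL1A1 of fibroblasts had 36.5 to 87 counts and fell by 0.61 on the log2 scale upon knock-down. ACTA2 of smooth muscle had 151.5 to 293 counts and was 0.74 higher, with both adjusted p under 0.05. CDKN2A, deleted in A549, had 0 counts in all 6 samples. KRT8 fell by 1.28 on the log2 scale and EPCAM fell by 2.76 upon knock-down, while CDH1 rose by 1.34, and their part in the results below was not tested. In these bulk samples, fewer cells that express a gene and less RNA per cell cannot be told apart.

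Upon KMT9α knock-down, AHR, TIPARP, CYP1B1, ARNT2 and AHRR were higher, and ARNT and CYP1A1 were lower. AHR rose 3.92-fold, the largest change of the 7 genes, and CYP1A1 was 2.32-fold lower. In edgeR's quasi-likelihood fit, with p-values adjusted over 13877 genes by the Benjamini-Hochberg method and called under 0.05, 5 of the 7 genes were higher, against 37.1% of all genes tested, and 2 were lower, against 38.5%. At the threshold of the study (p under 1e-08 together with a log2 fold change of more than 0.26 in size), 4 of the 7 were higher, against 13.5% of all genes, and 0 were lower, against 10.7%. AHR, TIPARP, CYP1B1 and ARNT2 passed it. ARNT, CYP1A1 and AHRR did not. Here the threshold was applied to the quasi-likelihood p-values, whereas the edgeR test of the study is not named. With edgeR's likelihood-ratio test ARNT and CYP1A1, both lower, passed it as well. In each of the 7 genes the groups were fully separated, as in 77.0% of all genes tested. Since AHR and CYP1B1 were known to have changed when the genes were chosen, nothing is read from these counts.

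**Figure D1:**
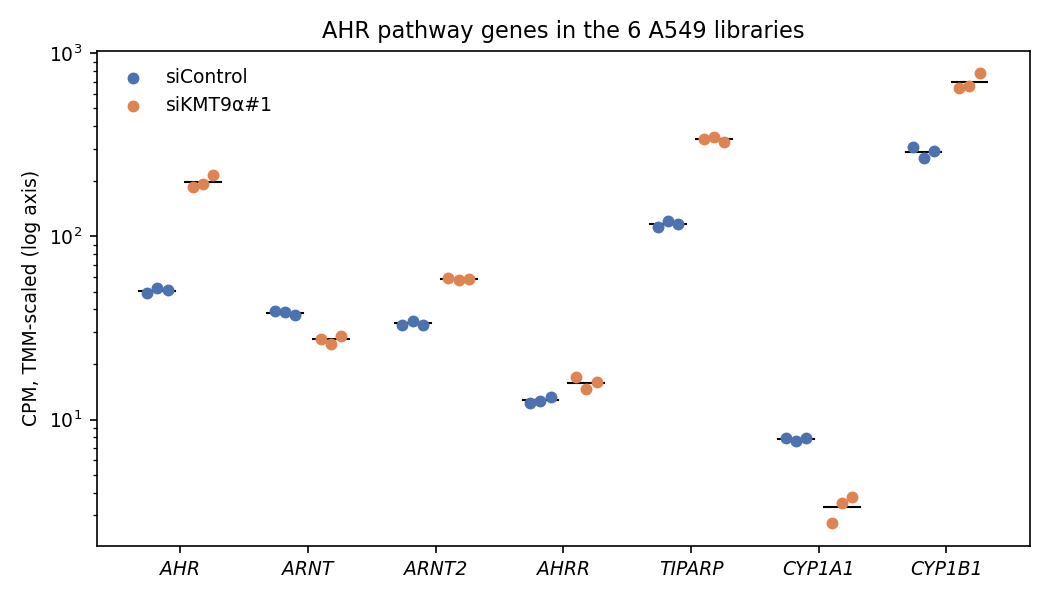
Library-scaled CPM of the 7 genes on a log axis, with 1 point per library and a line at the mean of each group of 3. The siKMT9α#1 points of AHR sit at 186.4 to 215.8 CPM, above 49.0 to 52.2 CPM in siControl, and those of CYP1A1 sit at 2.72 to 3.77 CPM, below 7.66 to 7.97 CPM.

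The receptor AHR, listed as NM_001621, lies on chromosome 7 of hg19 from 17338276 to 17385775 on the plus strand. In siControl it was at 49.0, 52.2 and 50.7 CPM. In siKMT9α#1 it was at 186.4, 192.8 and 215.8 CPM, so that the lowest knock-down sample lay far above the highest control. The group means were 50.6 ± 1.59 and 198.4 ± 15.5 CPM (SD, n = 3 each). The log2 fold change of 1.97 (SE 0.06, adjusted p = 5.65e-16, edgeR quasi-likelihood fit) ranked 246 from the top among the 13877 genes. Per length, the AHR level moved from the 51.9th percentile of the tested genes in siControl to the 80.6th in siKMT9α#1. With offsets for GC content and transcript length, added after the data were seen, its log2 fold change was 1.75. In the GRCh37 annotation the span of AHR overlaps ENSG00000283321, a protein-coding gene on the same strand from 17338919 to 17506858. It also overlaps ENSG00000237773, a long noncoding RNA gene on the opposite strand. How reads in shared sequence were assigned is not stated.

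The partners changed in opposite directions. ARNT, the general partner that also serves the hypoxia factors, is listed on chromosome 1 between 150782181 and 150849244 (minus strand). It was at 39.0, 38.5 and 37.4 CPM in siControl and at 27.6, 26.0 and 28.8 CPM in siKMT9α#1. The log2 fold change was -0.48 (SE 0.06, adjusted p = 1.47e-06, edgeR quasi-likelihood fit), and all knock-down samples were below all controls. ARNT2, a paralogue best known from the nervous system and kidney, is listed as NM_014862 on chromosome 15 from 80696692 to 80890277 on the plus strand. It was at 33.0, 34.7 and 32.9 CPM in siControl and at 59.6, 57.7 and 58.3 CPM in siKMT9α#1, with all knock-down samples above all controls. Its log2 fold change was 0.80 (SE 0.06, adjusted p = 1.33e-10, edgeR quasi-likelihood fit).

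Set against transcript length, ARNT held 60.6% ± 0.76 (SD, n = 3) of the summed level of both partners in siControl and 38.7% ± 1.11 (SD, n = 3) in siKMT9α#1. The more abundant partner mRNA was therefore ARNT in each control sample and ARNT2 in each knock-down sample. The sum itself was 13.1 ± 0.25 CPM per kilobase in siControl and 14.6 ± 0.36 in siKMT9α#1 (SD, n = 3 each).

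Within each library, AHR and ARNT mRNA were close to parity in siControl, at 0.978, 1.05 and 1.05 AHR per ARNT by counts per base. In siKMT9α#1 the ratio was 5.26, 5.77 and 5.84. On the log2 scale it differed by 2.45 between the groups, with p = 0.1 from a two-sided exact permutation test, which is the smallest p that 3 against 3 samples allow. This ratio does not depend on how the libraries are scaled. Against ARNT and ARNT2 together, AHR stood at 0.623 ± 0.020 in siControl and 2.18 ± 0.16 in siKMT9α#1 (SD, n = 3 each).

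AHRR, which competes with AHR for its partner, is listed on chromosome 5 from 304291 to 438405 on the plus strand. It was at 12.3, 12.6 and 13.3 CPM in siControl and at 17.1, 14.6 and 16.1 CPM in siKMT9α#1. The groups stood close together, with 13.3 CPM in the highest control and 14.6 CPM in the lowest knock-down sample. The log2 fold change of 0.32 (SE 0.09, adjusted p = 0.00275, edgeR quasi-likelihood fit) was the smallest in size of the 7 genes. With the library size alone it was 0.22, which is a shift shared by all genes, whose median log2 fold change moved from -0.01 to -0.12 under that scaling. The deposited span of AHRR overlaps that of PDCD6, a gene on the same strand with 2295.5 to 3060.5 counts per siKMT9α#1 sample, and how reads in shared sequence were assigned is not stated. PDCD6 itself had a log2 fold change of 0.07 (adjusted p = 0.176, edgeR quasi-likelihood fit). The GRCh37 annotation also lists PDCD6-AHRR on the same strand from 271785 to 438406, which covers the deposited span of AHRR. The AHRR level was 0.281 ± 0.012 of that of AHR per length in siControl and 0.0899 ± 0.0106 in siKMT9α#1 (SD, n = 3 each).

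**Figure D2:**
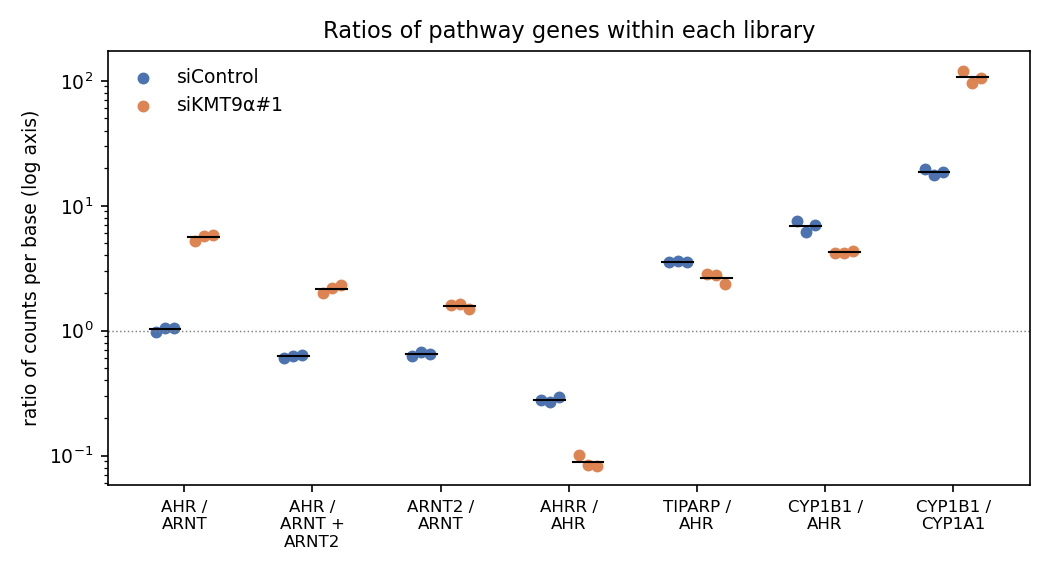
Ratios of counts per base between genes of the pathway, taken within each library and drawn on a log axis, with 1 point per library and a line at the mean of each group of 3. The AHR to ARNT ratio lies at 0.978 to 1.05 in siControl and at 5.26 to 5.84 in siKMT9α#1, whereas the AHRR to AHR ratio is lower in siKMT9α#1.

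Among the targets, TIPARP, a mono-ADP-ribosyltransferase that acts on AHR and limits its activity, is listed on chromosome 3 from 156392205 to 156424557 on the plus strand. It was at 113.3, 120.9 and 116.7 CPM in siControl and at 339.9, 349.6 and 329.6 CPM in siKMT9α#1. The spread within each group was small beside the difference, with group means of 117.0 ± 3.81 and 339.7 ± 9.98 CPM (SD, n = 3 each). The log2 fold change was 1.54 (SE 0.05, adjusted p = 1.21e-15, edgeR quasi-likelihood fit). The span overlaps TIPARP-AS1 on the opposite strand, and whether the counting used strand is not stated. TIPARP-AS1 had at most 126 counts per sample and was higher as well, with a log2 fold change of 1.20 (adjusted p = 8.05e-07, edgeR quasi-likelihood fit).

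CYP1B1, an extrahepatic P450 enzyme, is listed as NM_000104 on chromosome 2 between 38294746 and 38303323 (minus strand). It was at 308.2, 266.9 and 293.8 CPM in siControl and at 642.9, 666.9 and 778.0 CPM in siKMT9α#1. All knock-down samples lay above all controls. The log2 fold change was 1.27 (SE 0.07, adjusted p = 1.97e-12, edgeR quasi-likelihood fit), and with GC and length offsets it was 1.06. CYP1B1 had the highest level per length of the 7 genes in both groups and reached the 95.8th percentile of all tested genes in siKMT9α#1. In the GRCh37 annotation its span overlaps CYP1B1-AS1 on the opposite strand.

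CYP1A1, the target most used as a readout of AHR activity, is listed as NM_000499 on chromosome 15 between 75011883 and 75017877 (minus strand). It went the other way, from 7.97, 7.66 and 7.90 CPM in siControl to 2.72, 3.51 and 3.77 CPM in siKMT9α#1. These values rest on 123.5 to 152 counts per control and 35.5 to 71.5 counts per knock-down sample, fewer than for any other of the 7 genes. All knock-down samples lay below all controls. The log2 fold change was -1.21 (SE 0.13, adjusted p = 1.21e-07, edgeR quasi-likelihood fit). The standard error was the largest of the 7 genes.

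The ratio of CYP1B1 to CYP1A1 per length was 19.6, 17.6 and 18.7 in siControl and 120.8, 96.8 and 104.9 in siKMT9α#1, a difference of 2.52 on the log2 scale. Relative to the receptor, TIPARP and CYP1B1 were lower in the knock-down. TIPARP stood at 3.58 ± 0.014 per AHR in siControl and 2.66 ± 0.26 in siKMT9α#1, and CYP1B1 at 6.93 ± 0.71 and 4.24 ± 0.11 (SD, n = 3 each). These ratios were chosen after the values had been seen.

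**Figure D3:**
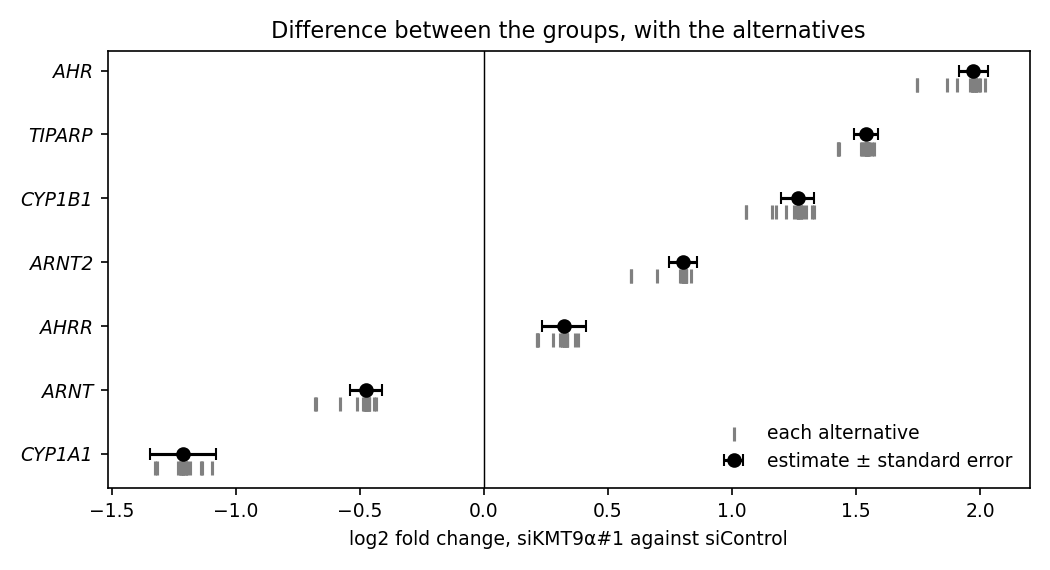
Log2 fold change of each of the 7 genes between siKMT9α#1 and siControl, where black points with bars give the estimate and its standard error and grey ticks give each of the 17 alternative analyses. No tick crosses 0, and the 5 genes on the right and the 2 on the left keep their side.

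By level per length, the order in siControl was CYP1B1 at 56.3 ± 4.07, TIPARP at 29.1 ± 0.95, AHR at 8.13 ± 0.25, ARNT at 7.91 ± 0.16, ARNT2 at 5.14 ± 0.15, CYP1A1 at 3.02 ± 0.06 and AHRR at 2.28 ± 0.09 CPM per kilobase (SD, n = 3 each). AHR and ARNT overlapped, and each other neighbouring pair was separated in all samples. In siKMT9α#1 the order was CYP1B1 at 135.2 ± 14.01, TIPARP at 84.5 ± 2.48, AHR at 31.9 ± 2.48, ARNT2 at 8.97 ± 0.14, ARNT at 5.67 ± 0.29, AHRR at 2.85 ± 0.22 and CYP1A1 at 1.28 ± 0.21 CPM per kilobase (SD, n = 3 each). No neighbours overlapped there. Upon knock-down ARNT2 and ARNT changed places, as did AHRR and CYP1A1.

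The genes whose log2 CPM followed that of AHR most closely over the 6 samples, among 13085 genes with a mean of at least 1 CPM, were LMNB1, ANKRD10, CTR9, GTF2E2 and NR5A2, with Pearson r between 0.9994 and 0.9996. This is a description that rests on the separation of the groups, and 1183 genes had an r above 0.99. They included TIPARP at 0.996, ARNT2 at 0.996 and CYP1B1 at 0.9903. AHRR was at 0.907, CYP1A1 at -0.961 and ARNT at -0.973.

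Further genes of the pathway were taken from 7 lists, 60 genes in all, of which 51 passed the filter. Of these, 31 were called higher and 12 called lower at an adjusted p under 0.05, and at the threshold of the study 23 were higher and 3 lower. Over all genes tested, the shares called higher and lower were 37.1% and 38.5% on the adjusted p, and 13.5% and 10.7% at the threshold of the study. The median log2 fold change was 0.49, against -0.01 over all genes tested. The lists were written with earlier results of these data known. Nothing is therefore read from these counts or from those of each list below.

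The chaperones that hold AHR in the cytosol changed little. HSP90AA1 had a log2 fold change of 0.02 and HSP90AB1 of 0.08, and neither had an adjusted p under 0.05 (0.684 and 0.122 in the edgeR fit). The signs of HSP90AA1 and HSP90AB1 turned with the library size alone. PTGES3, which encodes the p23 cochaperone, fell by 0.16 on the log2 scale (adjusted p = 0.00421 in the edgeR fit).

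The transcriptional coregulators moved mostly upwards, with 9 of 10 called higher on the adjusted p, against 37.1% of all genes tested, and 6 higher past the threshold of the study, against 13.5%. The other one, RB1, fell by 0.55 on the log2 scale. NCOA3, a p160 coactivator, was at 192.6 ± 7.35 in siControl and 461.4 ± 10.2 CPM in siKMT9α#1 (SD, n = 3 each), which is 1.26 on the log2 scale. NRIP1, a nuclear receptor corepressor, had a log2 fold change of 1.20. The acetyltransferases CREBBP and EP300 stood at 0.77 and 0.68. Of the 8 tested relatives in the bHLH-PAS family, 6 were called higher and 2 lower, NPAS1 and CLOCK, against 37.1% and 38.5% of all genes tested. SIM2, which can also pair with ARNT, had a log2 fold change of 2.03 and NPAS1 of -3.15, and CLOCK stood at -0.68. NPAS1 went from 202 to 241 counts per control sample to 16 to 26 counts per knock-down sample. ARNTL2 and NPAS2, both clock factors, stood at 0.84 and 0.72. HIF3A and NPAS3 had at most 2 counts in any sample and SIM1 had 0.

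Of the genes that act on receptor turnover, DDB1 had a log2 fold change of 0.42, STUB1 of -0.39 and MACROD1, which removes the ADP-ribose that TIPARP adds, of 0.47, each with an adjusted p under 0.05. None passed the threshold of the study. The spans of DDB1, STUB1 and MACROD1 overlap TKFC, JMJD8 and FLRT1. CUL4B stood at -0.04 (adjusted p = 0.510, edgeR quasi-likelihood fit).

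The other targets of drug metabolism moved in both directions. Of 7 tested, 3 were called higher and 2 called lower on the adjusted p, which is near the 37.1% and 38.5% of all genes tested, with a median log2 fold change of -0.09. ALDH3A1, an aldehyde dehydrogenase, was at 24.2 ± 2.42 CPM in siControl and 81.6 ± 4.54 in siKMT9α#1 (SD, n = 3 each), or 1.75 higher on the log2 scale. UGT1A6 stood at 1.54 and UGT1A1 at 1.56, but the genes of the UGT1A locus share exons, their counts were nearly the same, and they cannot be told apart here, so that these 2 calls rest on the same reads. NFE2L2, which encodes the transcription factor NRF2, fell by 0.71 on the log2 scale. ALDH3A1, UGT1A6, NFE2L2 and NQO1 also belong to the NRF2 response. NQO1 fell by 0.11. CYP1A2 and GSTA1 had 0 counts in every sample and GSTA2 at most 1.

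Of 12 further reported targets tested, 7 were called higher and 4 called lower on the adjusted p, against 37.1% and 38.5% of all genes tested. HES1, a Notch target and transcriptional repressor, had a log2 fold change of 1.61 and FOXQ1, a forkhead factor, of 1.20. EREG, an EGF family ligand, and PTGS2, the inducible cyclooxygenase, stood at 0.98 and 1.03. The 4 called lower were VAV3 at -2.05, SCIN at -1.76 and LPCAT2 at -0.66 on the log2 scale, and IL1B, which went from 17.5 to 25 counts per control sample to 1 to 2 counts per knock-down sample. Of these VAV3 passed the threshold of the study. SERPINB2 had 0 counts in siControl and 1 to 4.5 counts in siKMT9α#1.

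The kynurenine route makes AHR ligands from tryptophan. Its entry enzymes were scarcely seen, with at most 1 count for IDO1 and IDO2, and TDO2 at 1.70 ± 0.37 CPM in siControl and 1.46 ± 0.41 in siKMT9α#1 (SD, n = 3 each). Of 7 tested genes of the route, 4 were called higher and 1 called lower on the adjusted p, against 37.1% and 38.5% of all genes tested. KMO, which hydroxylates kynurenine, was at 16.6 ± 1.22 in siControl and 60.7 ± 1.34 CPM in siKMT9α#1 (SD, n = 3 each), or 1.87 on the log2 scale, and KYNU, which cleaves it, had 0.74. The transaminases CCBL2 and CCBL1 had log2 fold changes of 1.62 and -0.58. The span of KMO overlaps OPN3 and that of CCBL2 overlaps RBMXL1, so that these counts are uncertain.

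**Figure D4:**
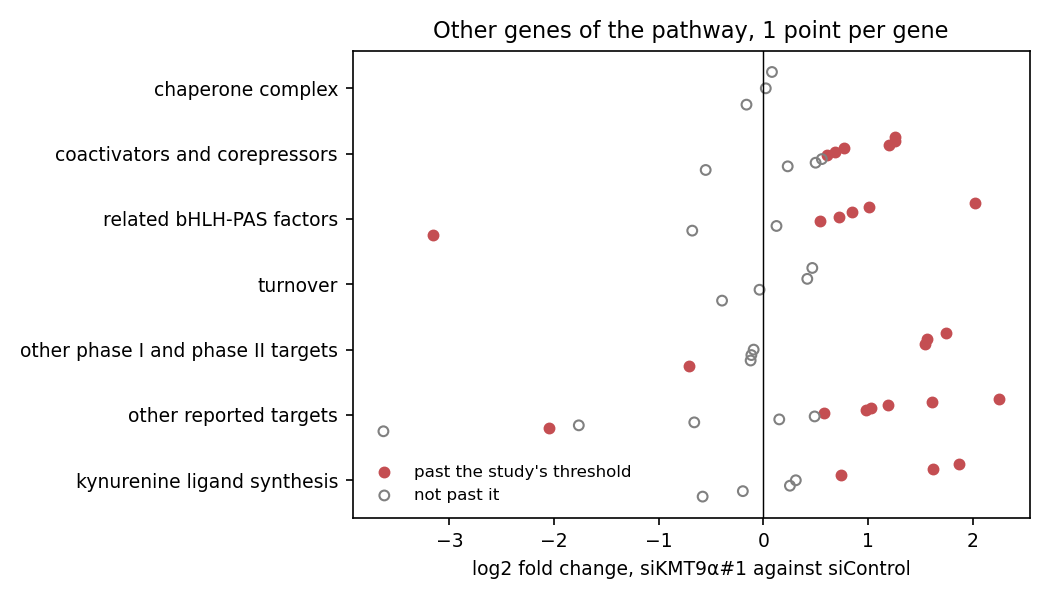
Log2 fold change between siKMT9α#1 and siControl for the 51 tested genes of the 7 lists, with 1 point per gene, filled where the gene passed the threshold of the study. The chaperones lie near 0, the coregulators mostly to its right, and the leftmost point, IL1B, rests on 1 to 2 counts per knock-down sample.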

How the data were processed

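Per the submitters' processing notes and the methods of the study, STAR was used for alignment to hg19 and HOMER for counting. The table deposited by the authors holds estimated counts of RefSeq transcripts in each sample, in steps of 0.5 and not normalized. Library type, strand setting and the edgeR test of the study are not given in the sources used here. The deposited fold changes and p-values of the authors were not used. Of 38767 rows, 1182 that lacked a symbol or a count were left out, and 1 transcript was kept for each of 23180 symbols. The counts were rounded to whole numbers and fitted with edgeR 4.0.16 in R 4.3.3 (TMM, filterByExpr, two-sided quasi-likelihood F test), with Benjamini-Hochberg adjustment over 13877 genes. The fit was tested on simulated data in which far fewer genes changed, so that the scaling was not tested at the extent of change seen here. CPM were scaled by TMM, and levels between genes were compared per kilobase of the deposited length. The transcript length as deposited by the authors served for this. The alternatives were the likelihood-ratio test, DESeq2 1.42.0, other scalings, filters and transcripts, the replicate block, each sample left out and, added after the data were seen, GC and length offsets. Genes named from the lists are those with the 4 smallest p per list, sign changes and untested genes. RB1, CLOCK, NQO1, IL1B, SCIN, LPCAT2, VAV3 and TDO2 were named after their values were seen, and 1 listed gene is not reported here. The members and lists were chosen with earlier results of these data known.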

Additional observations from a re-analysis of the deposited data

How the results depend on the processing

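All 7 genes kept their direction and an adjusted p under 0.05 in all 17 alternatives. The log2 fold changes ran from 1.75 to 2.02 for AHR, -0.68 to -0.44 for ARNT, 0.59 to 0.84 for ARNT2, 0.21 to 0.38 for AHRR, 1.43 to 1.57 for TIPARP, 1.06 to 1.33 for CYP1B1 and -1.33 to -1.10 for CYP1A1, and the AHR to ARNT ratio differed by 2.41 to 2.50 on the log2 scale in its 8 alternatives. The number past the threshold of the study was 4 to 6 of 7. ARNT and CYP1A1 joined with the likelihood-ratio test, without a filter and with GC and length offsets, and CYP1A1 alone joined with DESeq2. Over all genes tested, 3357 passed that threshold, against 5962 with the likelihood-ratio test, 6070 without a filter, 5281 with GC and length offsets and the replicate block, and 2326 to 4084 with each sample left out. With the library size alone, 1516 were higher and 1862 lower, against 1878 and 1479. Deviations from the group means were not shared by equal replicate numbers (correlations of -0.08, 0.02 and -0.08). With the replicate block 4 of 7 genes and 2342 of all genes passed the threshold, and AHR had a log2 fold change of 1.97. The low counts of CYP1A1 limit its precision.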
